A study of Mus musculus with 18 samples.

Results

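The genes described here encode the DNA replication machinery of the mouse: 39 genes for origin licensing, the MCM helicase, DNA polymerases, the sliding clamp, Okazaki fragment joining and deoxynucleotide supply. They were chosen by name. Each was represented by its brightest probe (highest mean), provided that 3 or more arrays detected the probe at p below 0.05. By that filter 37 of the 39 were kept, among 11921 kept genes in all. Pola1, the catalytic subunit of DNA polymerase alpha, had 1 probe, detected on 0 of 18 arrays. Pole2, a subunit of polymerase epsilon, had 2 probes, detected on 1 array and on 0 arrays, and neither gene has a level below.

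Expression was profiled with Illumina bead arrays on total RNA of cultured myoblasts from mice of strain Gata4tm1.1Sad/J, whose Gata4 gene carries loxP sites in every group. The KO cells had received Cre recombinase by adenovirus, the OE cells mouse GATA4 by retrovirus and the Wt cells nuclear beta-galactosidase by adenovirus, so that OE and Wt differ also in the kind of virus. Day 3 cells had spent 3 days in differentiation medium and day 0 cells were in growth medium, with 3 arrays for each of the 6 combinations. Nothing in the labels says that arrays of a group came from separate cultures, and p-values then reflect only how far these arrays differ, which may be technical.

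Before a cell divides, the origin recognition complex, Cdc6 and Cdt1 load the MCM2-7 ring onto DNA. Cdc45 and the GINS complex then turn the ring into an active helicase, and polymerases copy both strands with the help of the clamp PCNA. Many of these genes are targets of E2F transcription factors and are transcribed as cells enter S phase. Myoblasts leave the cell cycle for good as they differentiate, and muscle genes such as Ckm, the muscle creatine kinase, are switched on in that process.

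Promoters are shown first, with E2F words, since E2F factors are the best known regulators of replication genes. Whether E2F factors had a part in the levels on these arrays was not tested. RefSeq promoters (assembly GRCm38.p6, 250 bases before to 50 after an annotated start) were held for 30 of the 37 kept members. The words TTTGGCGC, TTTCCCGC, TTTCGCGC and TTTGCCGC, forms of the E2F consensus, were searched on both strands, and they may overlap. At least 1 word was found for 11 of the 30 members (36.7%), against 704 of 27025 genes with a promoter of the same length (2.6%). The word CCAAT, known for binding NF-Y, was held by 20 of the 30 (66.7%), against 41.1% of all. Base composition was not matched in these shares, and a word is a match of letters and not a binding site. The MCM subunits with a word are printed 5′ to 3′ on the gene's strand, with the E2F words in capitals. Prim1 follows, the member with the smallest difference between arrays, which holds none. Its probe was detected on 4 of 18 arrays, so that difference was hardly measurable.
Mcm6 (chr1:128359656-128359955, minus strand): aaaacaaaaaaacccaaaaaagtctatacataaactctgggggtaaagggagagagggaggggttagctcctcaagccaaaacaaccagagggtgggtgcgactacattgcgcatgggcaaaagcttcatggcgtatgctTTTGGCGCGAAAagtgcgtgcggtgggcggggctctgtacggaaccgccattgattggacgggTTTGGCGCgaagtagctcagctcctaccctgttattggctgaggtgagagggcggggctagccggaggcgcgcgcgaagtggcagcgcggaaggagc
Mcm7 (chr5:138171834-138172133, minus strand): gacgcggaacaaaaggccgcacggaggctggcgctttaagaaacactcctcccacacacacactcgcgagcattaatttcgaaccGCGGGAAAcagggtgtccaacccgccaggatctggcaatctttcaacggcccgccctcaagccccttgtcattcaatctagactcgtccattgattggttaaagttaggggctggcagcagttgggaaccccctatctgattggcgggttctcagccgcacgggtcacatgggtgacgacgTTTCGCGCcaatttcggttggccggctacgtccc
Mcm5 (chr8:75109259-75109558, plus strand): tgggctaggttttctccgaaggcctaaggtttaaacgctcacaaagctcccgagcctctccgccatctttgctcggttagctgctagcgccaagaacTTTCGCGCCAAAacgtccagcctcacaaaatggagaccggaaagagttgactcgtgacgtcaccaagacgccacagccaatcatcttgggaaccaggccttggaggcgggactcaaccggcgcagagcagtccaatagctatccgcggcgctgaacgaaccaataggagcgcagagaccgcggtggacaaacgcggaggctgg
Mcm3 (chr1:20820263-20820562, minus strand): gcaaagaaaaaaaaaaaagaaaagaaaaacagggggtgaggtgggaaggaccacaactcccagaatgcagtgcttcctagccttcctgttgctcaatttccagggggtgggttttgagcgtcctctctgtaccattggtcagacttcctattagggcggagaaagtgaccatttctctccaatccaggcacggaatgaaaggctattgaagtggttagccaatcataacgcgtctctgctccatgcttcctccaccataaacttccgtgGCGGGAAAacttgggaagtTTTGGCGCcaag
Prim1 (chr10:128014965-128015264, plus strand): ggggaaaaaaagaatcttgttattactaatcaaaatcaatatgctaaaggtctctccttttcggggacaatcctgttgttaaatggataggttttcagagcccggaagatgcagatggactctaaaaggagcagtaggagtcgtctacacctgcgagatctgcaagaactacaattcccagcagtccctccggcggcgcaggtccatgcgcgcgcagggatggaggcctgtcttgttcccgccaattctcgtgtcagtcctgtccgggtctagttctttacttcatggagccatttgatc

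In the Mcm6 promoter TTTGGCGC began at positions -110 and -47 from the annotated start, and TTTCGCGC on the opposite strand at -106, overlapping the first. In Mcm5, TTTCGCGC at -153 and TTTGGCGC on the opposite strand at -149 overlapped in the same way. Mcm3 held TTTCCCGC at 20 and TTTGGCGC at 39, after the start, and Mcm7 held words at -165 and 17. The other members with a word were Cdt1, Cdc6, Pold1, Lig1, Orc1, Gins3 and Rfc3. Mcm10, Tk1, Pcna and Mcm2, an MCM subunit that differed by -1.89, held none of the 4 words in this window. The 37 members were spread over 12 chromosomes, with 7 on chromosome 5 (18.9%, against 6.44% of all kept genes) and 6 on chromosome 8 (16.2%, against 5.23%).

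The arrays stood apart from their labels, and whether titles were exchanged was not tested. Ordered by Ckm, which is no member, they parted at the widest gap of its values, with 9 arrays between 10.87 and 11.39 and 9 between 6.78 and 8.05 on the log2 scale. These are called Ckm-high and Ckm-low arrays here. They are no groups of the study and rest on measured values, so nothing between them was tested. Of the 9 day 3 arrays 6 were Ckm-high, and of the 9 day 0 arrays 3 were. Each labelled group but KO day 3 held both kinds. Ordering by the troponin Tnnt3 or the fusion protein Mymk, both chosen after the data were seen, gave the same 2 sets of 9. Of the myoblast markers Pax7 was not kept, while Myod1 lay between 10.1 and 11.15 over all arrays and Des between 12.41 and 14.02. Myf5 was dim, between 4.37 and 5.53, and was detected on 8 Ckm-high and 5 Ckm-low arrays. Of 5 endothelial markers Cdh5 and Emcn were detected on at most 1 array, while Tek was detected on 7 of 9 Ckm-high and 9 of 9 Ckm-low arrays, at up to 7.4 and 7.49. Kdr was detected on 2 Ckm-high and 3 Ckm-low arrays and Pecam1 on 2 of each, and the mean of these 3 overlapped (4.56 to 5.49 on Ckm-high and 4.57 to 5.62 on Ckm-low arrays). Of 5 leukocyte markers Ptprc, Adgre1 and Itgam were detected on at most 1 array and Lyz2 on 1 Ckm-high and 2 Ckm-low arrays. The numbers of detected probes overlapped between Ckm-high (17944 to 19966) and Ckm-low arrays (16974 to 19775). The Gata4 probe was detected on 5 of 18 arrays at signals of 91.91 to 116.3, near background, and does not check the labels.

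All 37 kept members had a lower median on the Ckm-high than on the Ckm-low arrays, as did 51.1% of all 11921 genes, and no member failed to be lower. For 34 of the 37 (91.9%) every Ckm-high array lay below every Ckm-low array, against 9.95% of all genes. Orc1 and Prim1 were detected on fewer than 3 Ckm-high arrays, and without them the count was 33 of 35, against 10.6% of the 10768 genes detected on at least 3 of those arrays. The difference of medians, Ckm-high minus Ckm-low, had a median of -1.64 over the members and of -0.01 over all genes. It was at or below -1 for 27 members, against 6.74% of all genes. The mean over the 37 members lay between 6.98 and 7.34 on Ckm-high arrays and between 8.67 and 8.84 on Ckm-low arrays, with no array in between. In bulk RNA, fewer dividing cells and less of each message per cell cannot be told apart.

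**Figure D1:**
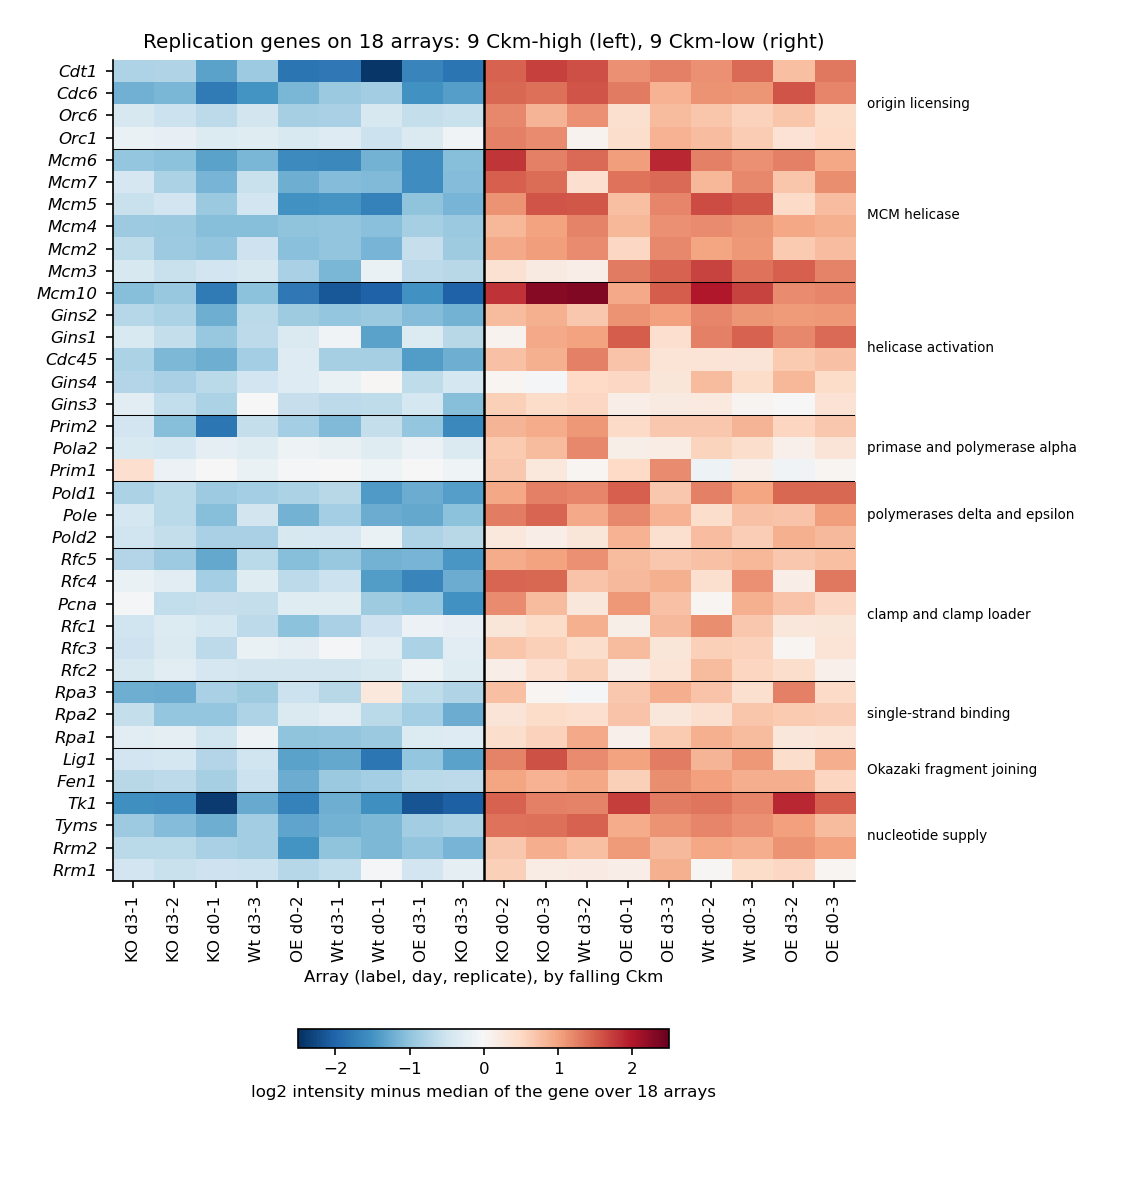
Level of each of the 37 members (rows, by role) on each of the 18 arrays (columns, named by label, day and replicate), as log2 intensity minus the median of the gene over the arrays. The 9 Ckm-high arrays are left of the black line and the 9 Ckm-low arrays right of it, and 34 of 37 rows have no overlap between the sides.

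Of the origin licensing genes, the 3 that were detected on both kinds of array lay lower on Ckm-high arrays without overlap. The share was 10.6% of all genes detected on 3 or more Ckm-high arrays. Cdt1, which loads the MCM ring, ranged from 7.01 to 8.69 on the Ckm-high arrays (median 7.78) and from 10.18 to 11.15 on the Ckm-low arrays (median 10.76). Its gap of 1.49 between the sides was wider than the spread of the Ckm-low side but narrower than that of the Ckm-high side. Cdc6, the partner of Cdt1 in loading, had medians of 5.54 on Ckm-high and 8.03 on Ckm-low arrays. Orc6, a subunit of the origin recognition complex, differed by -1.24. Orc1, its largest subunit, was detected on 0 of the 9 Ckm-high and on 9 of the 9 Ckm-low arrays. Since its signal on Ckm-high arrays was not well above background, only a bound of at least 1.7-fold lower can be given with this processing. The bound does not carry over to other settings. There the difference was -0.43 with normexp, -0.29 without background correction and -0.26 with the authors' processed values. Orc1 passed the detection filter only through the Ckm-low arrays and adds nothing to a count.

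The 6 subunits of the MCM2-7 helicase all lay lower without overlap, against 9.95% of all genes, with differences from -2.44 to -1.87. Mcm6 had the largest difference of the 6, at 7.14 to 7.78 on Ckm-high arrays (median 7.56) and 9.71 to 10.63 on Ckm-low arrays (median 10). Mcm4 was the tightest, at 9.43 to 9.66 on Ckm-high and 11.33 to 11.73 on Ckm-low arrays. The size of the difference hung on the background setting, since without background correction the 6 ranged from -2.03 to -0.87. Mcm3 had the narrowest gap of the 6, 0.35, with 3 Ckm-low arrays between 5.98 and 6.19.

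Among the genes that activate the helicase, Mcm10 had the largest difference of any member with this processing. Cdt1 passed it without background correction (-2.59 for Cdt1 and -2.42 for Mcm10), with the authors' processed values (-2.44 and -2.24) and with the mean of all probes (-2.99 and -1.98). Mcm10, which joins the fork as the helicase starts, was at 6.72, 6.82 and 5.76 on the KO day 3 arrays, at 6.26, 8.95 and 9.28 on the OE day 3 arrays and at 5.66, 10.09 and 6.74 on the Wt day 3 arrays. At day 0 it was at 6, 9.59 and 10.05 in KO, at 8.73, 5.98 and 8.99 in OE and at 5.76, 9.78 and 9.46 in Wt. The 9 Ckm-high arrays thus held values of 5.66 to 6.82 and the other 9 of 8.73 to 10.09, whatever the label, and 5 of the 6 labelled groups held values of both kinds. The difference of medians was -3.45, the fourth lowest of all 11921 genes (rank 4). Cdc45, which rides with the MCM ring, differed by -1.56. Of the GINS subunits Gins2 differed by -1.98, Gins1 by -1.79, Gins4 by -0.93 and Gins3 by -0.87. The sides of Gins4 overlapped (highest Ckm-high value 9.93, lowest Ckm-low value 9.88) and the gap of Gins3 rounded to 0. The 4 spanned 1.11 and the 6 MCM subunits 0.57, but without background correction the spans were 0.97 for GINS and 1.16 for MCM.

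Of the genes that start DNA strands, Prim2 and Pola2 lay lower without overlap and Prim1 overlapped. Prim2, the large primase subunit, ranged from 5.03 to 6.37 on Ckm-high arrays (median 5.88) and from 7.31 to 7.93 on Ckm-low arrays (median 7.52). Pola2, the regulatory subunit of polymerase alpha, lay between 7.33 and 7.64 (median 7.45) on Ckm-high and between 7.88 and 8.97 (median 8.2) on Ckm-low arrays. Prim1, the catalytic primase subunit, had the smallest difference of all members, -0.16. It ranged from 4.2 to 4.8 on Ckm-high and from 4.24 to 5.55 on Ckm-low arrays. It was detected on 1 of 9 Ckm-high and on 3 of 9 Ckm-low arrays, close to the lowest value of any kept gene (4.14), and a difference at that depth of signal was hardly measurable. The polymerases that copy both strands lay lower without overlap for 3 of 3 kept members, against 9.95% of all genes. Pold1, the catalytic subunit of polymerase delta, ranged from 6.34 to 7.09 (median 6.92) on Ckm-high and from 8.44 to 9.25 (median 9.03) on Ckm-low arrays. Pole, that of polymerase epsilon, was detected on 4 of the 9 Ckm-high arrays, with a median there (4.59) at the edge of detection. Its difference of -1.96 is therefore uncertain in size, and it was -1.01 with normexp, -0.74 without background correction and -0.68 with the authors' processed values. Pold2, an accessory subunit of polymerase delta, differed by -1.2.

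The clamp and its loader lay lower without overlap for 6 of 6 members, against 9.95% of all genes, with a median difference of -1.14. By the probe shown Rfc5, a loader subunit, had the largest, at 6.24 to 7.03 on Ckm-high arrays (median 6.64) and 8.36 to 8.83 on Ckm-low arrays (median 8.49). Its other kept probes, detected on 3 and 5 arrays, gave -0.19 and -0.42, and the mean of its probes gave -0.82. Rfc3, another loader subunit, ranged from 4.98 to 5.74 (median 5.51) on Ckm-high and from 5.82 to 6.57 (median 6.35) on Ckm-low arrays. Its gap was only 0.07. Rfc2, also of the loader, ranged from 9.46 to 9.79 (median 9.52) on Ckm-high and from 10.06 to 10.71 (median 10.34) on Ckm-low arrays. By the probes shown, the 5 subunits of 1 loader complex therefore spanned differences from -1.86 to -0.83. Pcna, the clamp itself, differed by -1.33 with a gap of 0.07. Of the single-strand binding proteins, Rpa1 and Rpa2 lay lower without overlap, at -0.93 and -1.23, while Rpa3 overlapped. Rpa3 ranged from 7.79 to 9.3 on Ckm-high arrays (median 8.28) and from 8.99 to 10.3 on Ckm-low arrays (median 9.72), and its highest Ckm-high value was that of Wt day 0 replicate 1.

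Lig1, the ligase that seals Okazaki fragments, ranged from 5.88 to 7.25 (median 6.72) on Ckm-high and from 8.12 to 9.28 (median 8.77) on Ckm-low arrays. Fen1, the flap nuclease acting before it, differed by -1.61. The enzymes of nucleotide supply parted into 3 with large differences and 1 with a small one. Tk1, the S phase thymidine kinase, had the widest gap of all members, 2.43, with values of 5.67 to 6.84 (median 6.51) on Ckm-high and 9.27 to 9.94 (median 9.4) on Ckm-low arrays. Tyms, thymidylate synthase, differed by -2.21. Of the subunits of ribonucleotide reductase, Rrm2, the small one whose level is known to follow the cell cycle, differed by -1.89. Rrm1, the large and more stable one, differed by -0.72, with values of 8.8 to 9.49 (median 9) on Ckm-high and 9.53 to 10.39 (median 9.72) on Ckm-low arrays. With this processing the 5 members with the smallest differences were Prim1, Rrm1, Pola2, Rfc2 and Rfc3, and of these Prim1 overlapped. Without background correction, with normexp and with the authors' processed values, Orc1 and Gins3 stood among the 5 in place of Rrm1 and Rfc2. With the mean of all probes the 5 were Prim1, Pola2, Rpa2, Rfc5 and Rfc3.

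**Figure D2:**
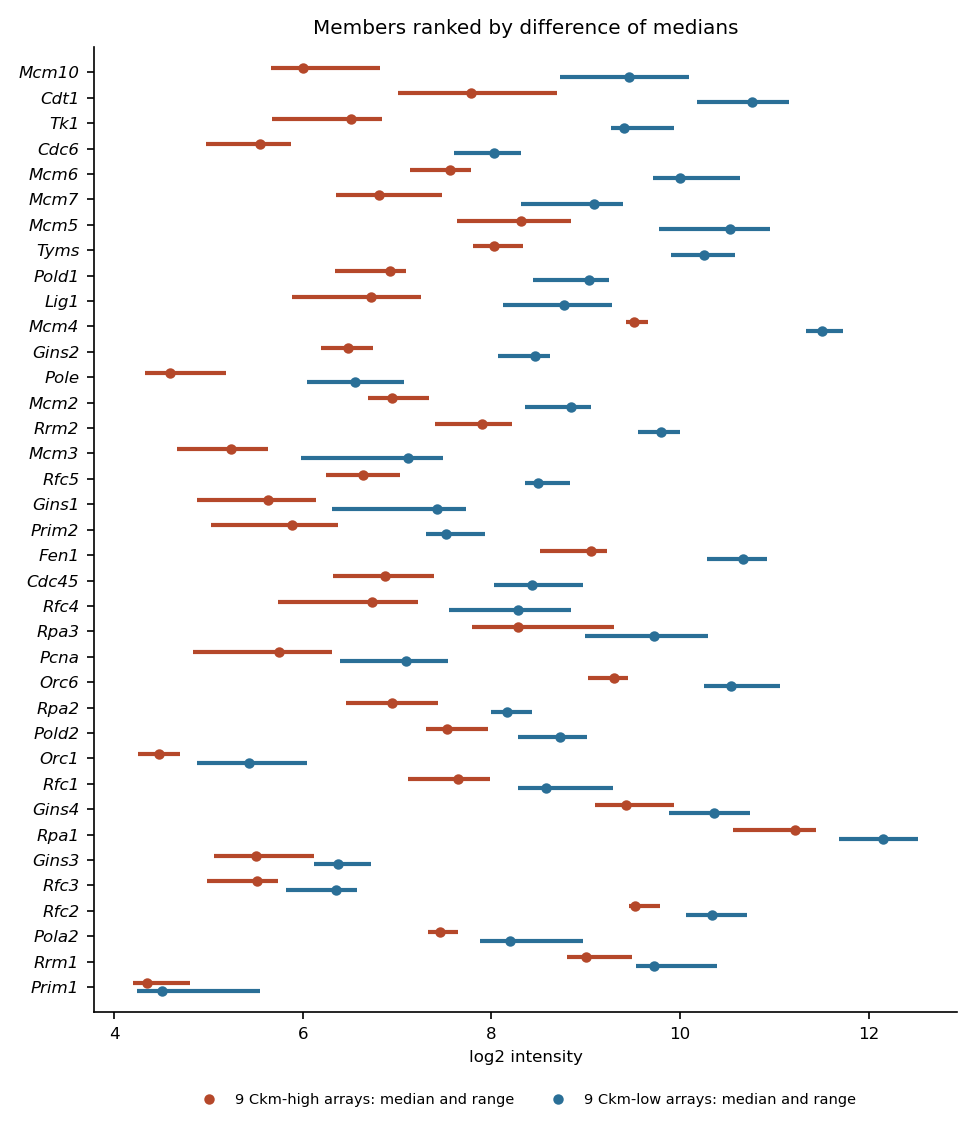
Log2 intensity (horizontal axis) of the 37 members, ranked by their difference of medians, with the range and median over the 9 Ckm-high arrays above those over the 9 Ckm-low arrays in each row. Mcm10 is at the top with a difference of -3.45 and Prim1 at the bottom with -0.16.

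The size of the difference also depended on the probe. Of the 37 members 16 had more than 1 kept probe, and all 68 kept probes had a lower median on Ckm-high arrays, 51 of them without overlap. The share over all kept probes is not given here. Some further probes were detected on few arrays, such as 1 of Rfc5 on 3, and may have passed the filter through Ckm-low arrays alone. Such probes add nothing to these counts. Within a gene the probes differed from each other by 0.11 to 3.2 (median 1.16). The 3 Mcm10 probes gave -3.45, -2.25 and -0.25, and the last was detected on 3 arrays. The 4 Rfc2 probes, each detected on all 18 arrays, gave -1.04 to -0.79. The ranking of members is thus a ranking of the probes shown.

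Inside the labelled groups the 34 members without overlap must keep this order, so the counts that follow add only Rpa3, Gins4 and Prim1. Within each of the 5 labelled groups that held both kinds, the Ckm-high arrays lay below the Ckm-low ones for 36 of 37 members in Wt day 0 and in OE day 3, and for 37 of 37 in KO day 0, OE day 0 and Wt day 3. Over all genes the shares were 43.6% in Wt day 0, 38.1% in OE day 3, 41.9% in KO day 0, 42.9% in OE day 0 and 41.9% in Wt day 3. In all 5 groups at once it held for 36 of 37 members, all but Prim1, against 16.3% of all genes, so that Rpa3 and Gins4 kept the order within each group. The SD over the 3 arrays of a group had a median over members of 0.22 in KO day 3, where all arrays were Ckm-high, and of 0.94 to 1.06 in the other groups. Over all genes the median SD lay between 0.18 and 0.34.

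**Figure D3:**
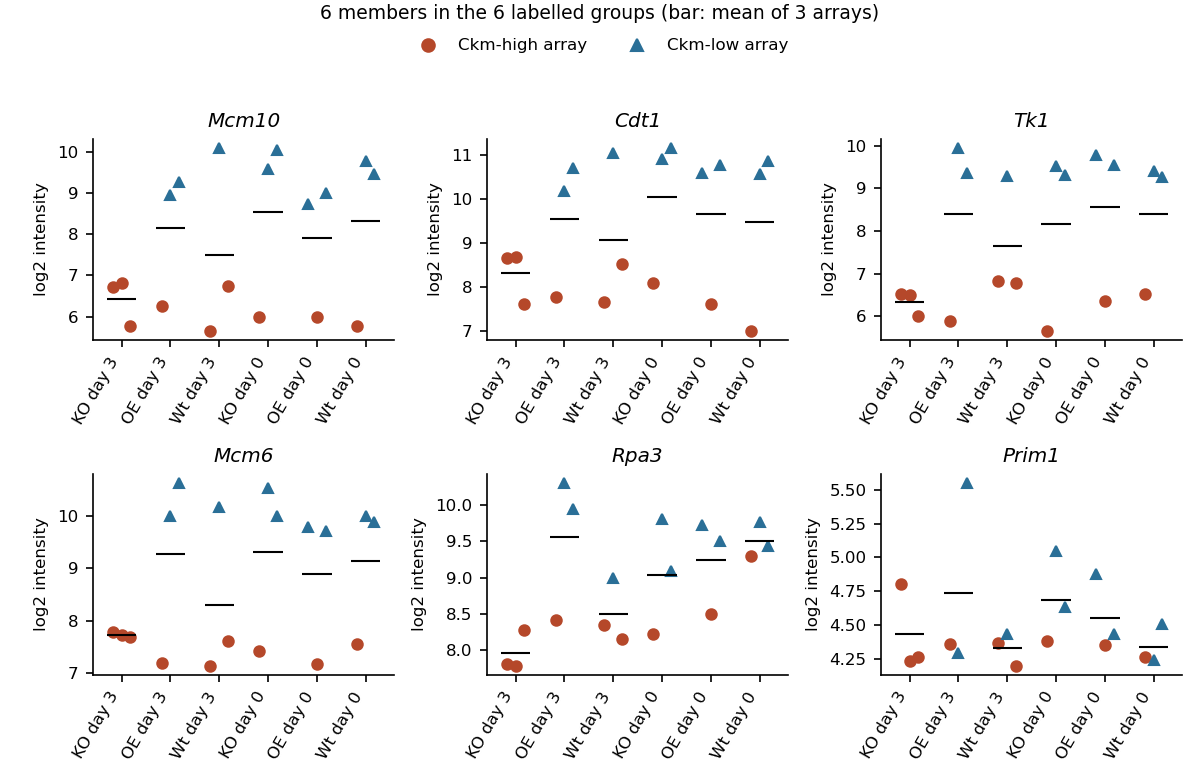
Log2 intensity of 6 members on each array by labelled group, day 3 left of day 0 and KO and OE left of Wt, with circles for Ckm-high and triangles for Ckm-low arrays and a bar at the mean of 3 arrays. For Mcm10, Cdt1, Tk1 and Mcm6 the circles lie below the triangles in every group, while Rpa3 and Prim1 overlap over the 18 arrays.

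Markers of other programmes moved with this order. Differentiated muscle genes had a mean over 6 of 7 listed genes of 12.26 to 12.53 on Ckm-high arrays and of 10.17 to 10.9 on Ckm-low arrays. The mean over 5 of 6 skeletal myoblast markers also parted without overlap, at 10.8 to 11.01 on Ckm-high and 10 to 10.43 on Ckm-low arrays. Of these, Des was higher by 1.47 and Cdh15 by 0.74, while Myod1 (0.01), Myf5 (0.19) and Chrna1 (0.64) overlapped. The mean over 2 of 4 smooth muscle markers parted too, at 7.78 to 8.17 on Ckm-high and 6.78 to 7.25 on Ckm-low arrays. Here Smtn was higher by 1.76 and Myocd overlapped (0.05), while Myh11 and Cnn1 were not kept. The mean over 6 of 7 fibroblast markers overlapped and lay between 6.32 and 7.27 on Ckm-high and between 5.93 and 6.97 on Ckm-low arrays, with Lum not kept. Of these, Dcn and Col1a1 were higher on Ckm-high arrays without overlap, by 2.77 and 1.33, while the median of Thy1 was lower (difference -1.31). Their part in the levels of the replication genes was not tested. Usp18, an interferon-induced protease, was above 9 on 6 arrays, 3 of each kind. Without these, a setting chosen after the data were seen, 36 of 37 members were lower without overlap. The share of all genes was then 16.2%, against 9.95% over all 18 arrays. The median difference of the members was -1.64 in that setting.

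Arrays of 1 kind were not uniform in these genes. Over all kept genes other than the members, the 18 arrays formed 6 sets of 3 mutually closest arrays, each of 1 kind. Correlations within sets were 0.9849 to 0.995 and the highest between sets was 0.9884, so that the 2 ranges overlap. Among the Ckm-low arrays, KO day 0 replicates 2 and 3 and Wt day 3 replicate 2, the 3 with Usp18 of 12.4 to 12.52, had 8 of 37 members (21.6%) above the other 6, against 9.5% of all genes. They had 3 members below (8.11%), against 7.17% of all genes. The 8 were Orc6, Cdt1, Cdc45, Gins3, Pola2, Prim2, Rfc5 and Tyms, and the 3 were Mcm3, Gins2 and Pold2. Mcm3 lay between 5.98 and 6.19 on these arrays and between 7.04 and 7.49 on the other 6, so that 1 subunit of the ring was low where Mcm2, Mcm4, Mcm5, Mcm6 and Mcm7 were not below the others. Cdt1 lay between 10.9 and 11.15 on them and between 10.18 and 10.85 on the other 6.

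OE day 0 replicates 1 and 3 and OE day 3 replicate 2 had 6 members (16.2%) below the other 6 Ckm-low arrays, against 8.84% of all genes, and 4 above (10.8%), against 9.72%. Mcm5 lay between 9.78 and 10.08 on them and between 10.43 and 10.95 on the others. Pold2 lay on the other side, between 8.94 and 9.01 against 8.28 to 8.89. The other Ckm-low set, Wt day 0 replicates 2 and 3 and OE day 3 replicate 3, had 0 members above (against 5.28% of all genes) and 2 below (5.41%, against 4.34%). These 2 were Cdc6 and Cdc45.

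Among the Ckm-high arrays, KO day 3 replicates 1 and 2 and Wt day 3 replicate 3 had 10 of 37 members (27%) above the other 6, against 8.12% of all genes, and 1 below, Rpa3 (2.7%, against 9.55%). Mcm5 was at 8.76 to 8.84 on these and at 7.63 to 8.38 on the other 6. Mcm10 was at 6.72 to 6.82 on these and at 5.66 to 6.26 on the others, still far under the lowest Ckm-low value of 8.73. The set of KO day 0 replicate 1, KO day 3 replicate 3 and OE day 3 replicate 1 had 0 members above (against 7.11% of all genes) and 3 below (8.11%, against 4.82%), namely Cdc45, Gins2 and Tk1. The last set joined replicate 1 of Wt day 0, replicate 1 of Wt day 3 and replicate 2 of OE day 0, and had 3 above (8.11%, against 12%) and 3 below (8.11%, against 12.4%). None of these differences between sets was tested, since the sets were found in the data.

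**Figure D4:**
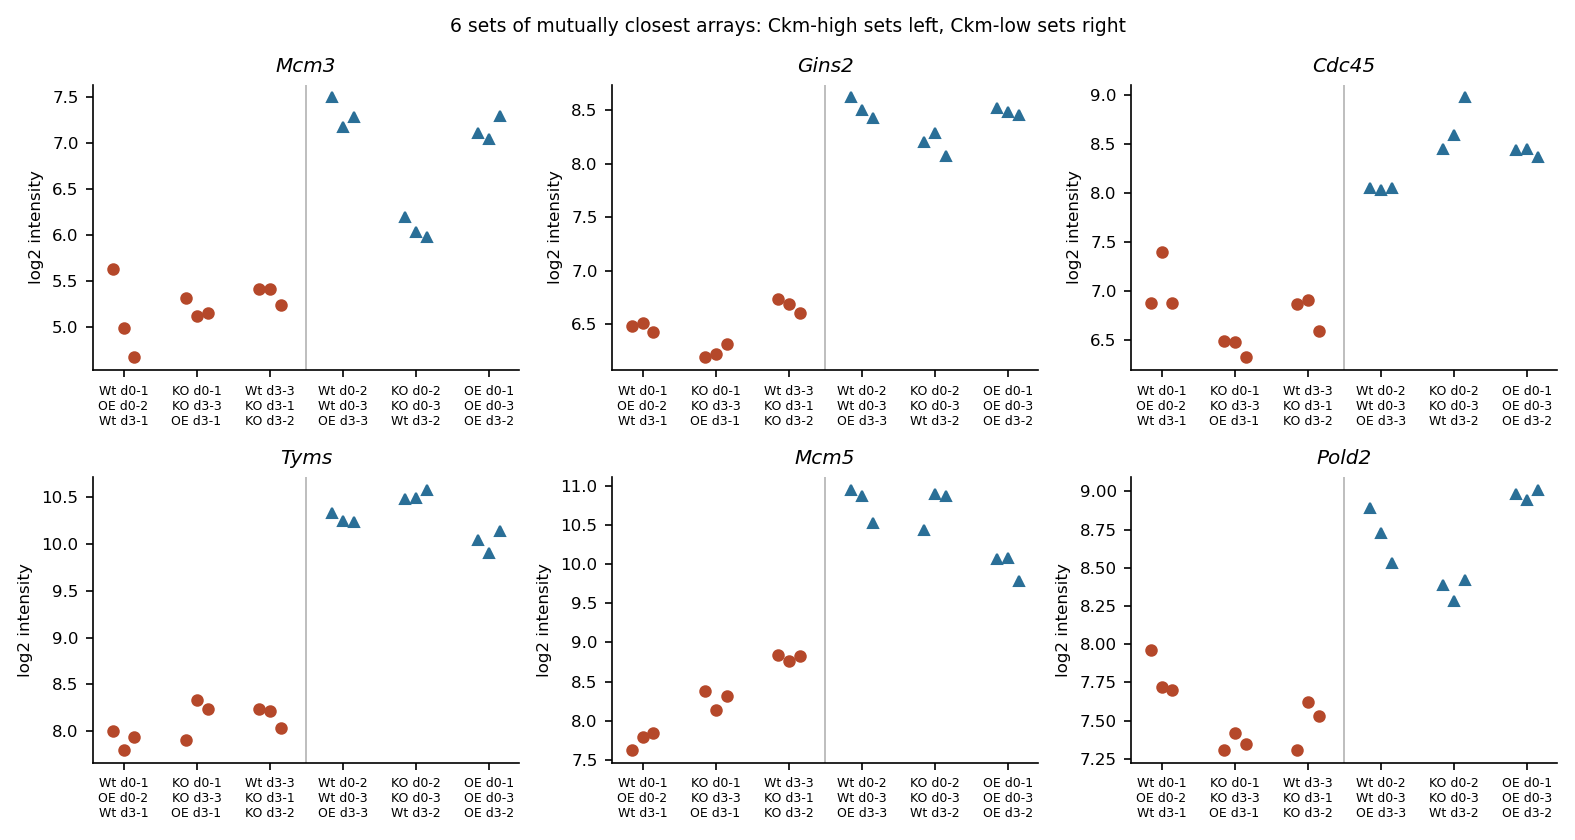
Log2 intensity of 6 members in the 6 sets of 3 mutually closest arrays, the 3 Ckm-high sets left of the line (circles) and the 3 Ckm-low sets right of it (triangles), with the arrays of each set named below it. Mcm3 is at 5.98 to 6.19 in 1 Ckm-low set and at 7.04 to 7.49 in the other Ckm-low arrays, and Mcm5 and Pold2 differ between sets of 1 kind.

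The labelled comparisons were laid out to ask what deletion or overexpression of Gata4 and what differentiation medium did to these genes. Since titles and array contents may not match, as the Ckm levels and the sets that cross the labels leave possible, each value below is a difference between arrays with those titles. No member passed an adjusted p below 0.05 in any of the 9 comparisons in limma, and neither did any of the 11921 genes (0%). At day 0 the members lay on both sides of 0 for KO against Wt. Their mean was 8.22 ± 1.06 in the KO arrays and 8.21 ± 1.01 in the Wt arrays (SD, n = 3 each), and 20 were higher and 17 lower, with a median log2 difference of 0.02 against -0.02 over all genes. At an unadjusted p below 0.05 there were 0 members, against 6.4% of all genes (3.38% lower and 3.02% higher). Gins4 had the lowest p, with 9.24, 9.96 and 9.88 in KO and 9.93, 10.69 and 10.36 in Wt, a difference of -0.64 ± 0.37 (SE, limma adjusted p = 0.841). Mcm3 differed by -0.92 ± 0.65 (adjusted p = 0.92). Replicate numbers were taken to pair these arrays, though the labels give no pairing and replicate 1 was the Ckm-high array of both groups. Within pairs Gins4 differed by -0.7, -0.73 and -0.48 and Mcm3 by -0.31, -1.31 and -1.13. A fit to these 6 arrays with the replicate block, added after the data were seen, gave ± 0.18 for Gins4 (limma adjusted p = 0.426) and ± 0.24 for Mcm3 (adjusted p = 0.415). It had 0 members past the threshold, and 3 members lower and 4 higher at an unadjusted p below 0.05, against 9.9% of all genes. Because the pairs match in Ckm, the block also took the split between Ckm-high and Ckm-low arrays out of its SEs. Leaving out Wt day 0 replicate 1 put the median over members at -0.63, and leaving out KO day 0 replicate 1 put it at 0.62, so that it took its sign from single arrays.

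At day 3, 35 of 37 members were lower in KO than in Wt, with a median of -0.58 against -0.01 over all genes. The mean over members was 7.18 ± 0.18 (SD, n = 3) in KO and 7.73 ± 0.93 in Wt. Pola2 had the lowest p, at 7.38, 7.33 and 7.39 in KO and 7.57, 8.97 and 7.45 in Wt, a difference of -0.63 ± 0.36 (SE, limma adjusted p = 0.945). Gins4 differed by -0.61 ± 0.37 with the same adjusted p. The number of members at an unadjusted p below 0.05 was 0, against 2.29% of all genes (0.998% lower and 1.29% higher). Without Wt day 3 replicate 2, the Ckm-low array of that group, the median was 0.02.

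For OE against Wt at day 0, 20 members were lower and 17 higher, with a median of -0.07 against -0.02 over all genes. The mean over members was 8.15 ± 0.96 (SD, n = 3) in OE and 8.21 ± 1.01 in Wt. Rfc1 differed by -0.62 ± 0.5 (SE) and Rfc2 by -0.36 ± 0.34, each with a limma adjusted p of 1, and 0 members had an unadjusted p below 0.05 (5.13% of all genes, with 2.52% lower and 2.62% higher). With Wt day 0 replicate 1 left out the median was -0.62, and with OE day 0 replicate 2 left out it was 0.44. At day 3, 33 of 37 members were higher in OE than in Wt, with a median of 0.45 against 0.01. The mean over members was 8.17 ± 0.98 in OE and 7.73 ± 0.93 in Wt. Rpa3 was the single member with an unadjusted p below 0.05 (3.95% of all genes, with 1.59% lower and 2.37% higher), at 8.41, 10.3 and 9.95 in OE and 8.35, 8.99 and 8.16 in Wt. Its difference was 1.05 ± 0.47 (adjusted p = 0.915), and the lowest OE value lay between the Wt values. Mcm3 differed by 1.22 ± 0.65 with the same adjusted p. With OE day 3 replicate 1 left out the median was 0.96, and with Wt day 3 replicate 1 left out it was 0.15.

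Day 3 against day 0 gave lower means for most members in Wt and for all in KO. In Wt 35 of 37 were lower, with a median of -0.46 against -0.01 over all genes. Mcm3 was at 4.67, 5.98 and 5.41 on day 3 and at 5.63, 7.49 and 7.17 on day 0, a difference of -1.41 ± 0.65 (SE, limma adjusted p = 0.9). It was the single member with an unadjusted p below 0.05 (3.99% of all genes, with 2.32% lower and 1.67% higher), and its groups overlapped. Rpa3 differed by -1 ± 0.47 with the same adjusted p. Leaving out Wt day 0 replicate 1 gave a median of -1.1, and leaving out Wt day 3 replicate 1 gave -0.17. With array weights the median was -1.29 and 4 members were past the threshold, Mcm3 among them (-2.07, limma adjusted p = 0.0497). The share of all genes past it with these weights is not given here, so the count does not set the members apart.

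In KO all 37 members were lower on day 3, with a median of -1.08 against -0.01 over all genes and single differences from -2.11 to -0.26. The mean over members was 7.18 ± 0.18 (SD, n = 3) on day 3 and 8.22 ± 1.06 on day 0. Rpa3 was at 7.81, 7.79 and 8.28 on day 3 and at 8.23, 9.8 and 9.09 on day 0, a difference of -1.08 ± 0.47 (SE). Pola2 was at 7.38, 7.33 and 7.39 on day 3 and at 7.54, 8.41 and 8.55 on day 0, without overlap, a difference of -0.8 ± 0.36. Both had a limma adjusted p of 0.488. They were the 2 members with an unadjusted p below 0.05 of 37, against 8.32% of all genes (3.93% lower and 4.39% higher). The day 0 arrays were 2 Ckm-low arrays and 1 Ckm-high array, replicate 1, without which the median was -1.72. With array weights, fitted from the same arrays, the median was -1.5 and 36 members were past the threshold. The share of all genes past it in that setting is not given here, so this count does not set the members apart.

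In OE the median of day 3 against day 0 was -0.01, with 19 members lower and 18 higher, and both days held 1 Ckm-high and 2 Ckm-low arrays. Rrm1 differed by 0.47 ± 0.36 (SE) and Rfc3 by -0.45 ± 0.38, each with a limma adjusted p of 1, and 0 members had an unadjusted p below 0.05 (4.57% of all genes, with 2.39% lower and 2.18% higher). Leaving out OE day 0 replicate 2 gave a median of -0.53, and leaving out OE day 3 replicate 1 gave 0.62. The differences of these changes over days from the Wt change had medians of -0.63 for KO and 0.58 for OE, with 0 members at an unadjusted p below 0.05, against 3.58% and 6.17% of all genes. The lowest p belonged to Pola2 (-0.81 ± 0.51, adjusted p = 1) and Gins3 (-0.79 ± 0.57, adjusted p = 1) for KO, and to Rpa3 (1.31 ± 0.67, adjusted p = 0.84) and Rrm1 (0.94 ± 0.51, adjusted p = 0.841) for OE. Comparisons with Wt of 1 day share its arrays, so their values are not independent.

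**Figure D5:**
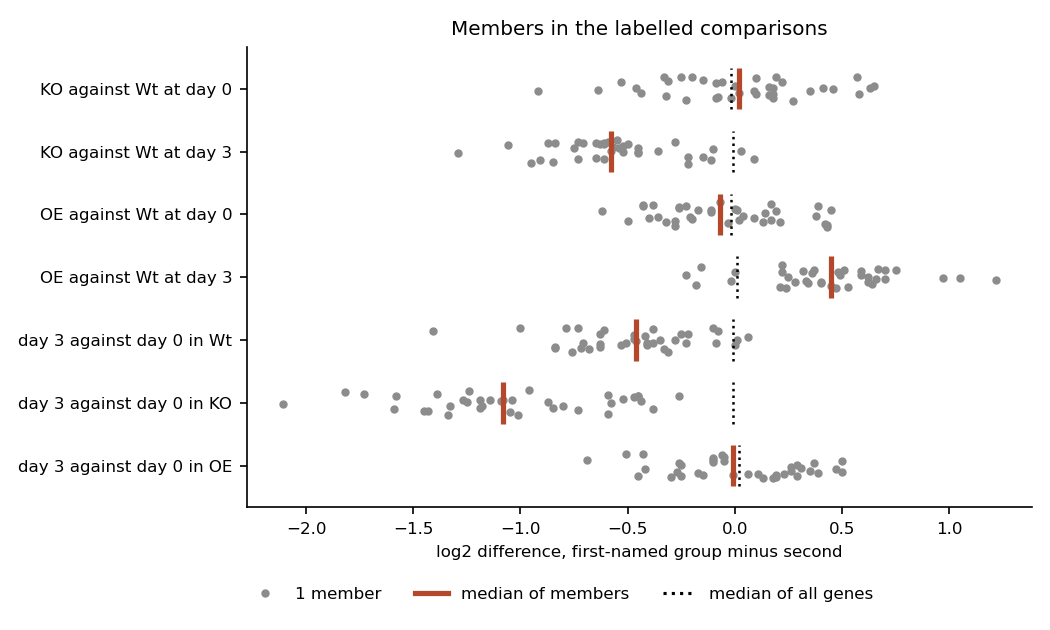
Log2 difference of each of the 37 members (grey points) in 7 labelled comparisons, the first-named group minus the second, with the median over members (red bar) and over all genes (dotted bar). The medians over members range from -1.08 for day 3 against day 0 in KO to 0.45 for OE against Wt at day 3, and no point belongs to a gene past the threshold.

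Other genes of replication lay lower less widely. Of 55 listed genes 48 were kept, 39 of them had a lower median on Ckm-high arrays, and 22 of the 48 (45.8%) were lower without overlap, against 9.95% of all genes. Chromatin assembly and DNA methylation maintenance had a lower median for 5 of 5 kept genes, as did 51.1% of all genes. Uhrf1, which guides the maintenance methyltransferase to new DNA, had medians of 7.82 on Ckm-high and 10.67 on Ckm-low arrays, and Chaf1b, a histone chaperone subunit, of 6.7 on Ckm-high and 9.53 on Ckm-low arrays. Clspn, a checkpoint mediator at forks, differed by -2.72, Dbf4, the partner of the origin-firing kinase Cdc7, by -2.45, and Chtf18, part of an alternative clamp loader, by -2.21. These 3 lay within the range of the members' own differences.

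Genes at or above 0 were 9 of 48. E2f2 was higher on Ckm-high arrays without overlap, at 9.09 to 10.35 (median 9.69) there, against 7.57 to 8.76 (median 8.06) on Ckm-low arrays, as 10.2% of all genes were. E2f1, the family's activator best known at replication genes, went the other way, at 8.39 to 9.15 (median 8.61) on Ckm-high and 9.51 to 10.21 (median 9.73) on Ckm-low arrays. E2f1 and E2f2 thus parted in opposite directions, while E2f3, of the same family, differed by -0.38 with overlap. Top1, the topoisomerase that relaxes DNA also in transcription, was higher by 0.55 without overlap. Orc4, an origin complex subunit, differed by 0.68, Pold4, a polymerase delta subunit, by 0.41, and Samhd1, which destroys deoxynucleotides, by 0.22. Rrm2b, the ribonucleotide reductase subunit of non-dividing cells, had medians of 7.63 on Ckm-high and 7.48 on Ckm-low arrays, a difference of 0.15 beside -1.89 for Rrm2. E2f6 differed by 0.16, and Orc3 and E2f8 by 0.06 each, with overlap. In the labelled comparisons 0 of the 48 passed the threshold in limma.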

How the data were processed

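The deposited raw table held, per the file headers, average bead intensity on a linear scale for 45281 probes on 18 arrays. Beside each intensity stood a detection p-value, also deposited. A second table of processed intensity values, deposited by the authors with medians of 105.1 to 110.7, served as an alternative. Its normalisation and the scanner software are not given in the sources used here. Columns were mapped to samples by title, and groups and replicate numbers were taken from titles.

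Intensities were background-corrected and quantile-normalised with neqc of limma 3.58.1 (R 4.3.3, background from detection p-values, offset 16), giving log2 values. Probes with a detection p below 0.05 on at least 3 arrays were kept (22365). Platform gene names were updated by Entrez identifier against RefSeq, assembly GRCm38.p6. Of the probes 34885 had 1 symbol, 18 several and 10378 none, and only the first kind was used. All 18 arrays entered a single fit with a mean for each of the 6 groups (lmFit, eBayes, 12 residual degrees of freedom), with Benjamini-Hochberg adjustment over 11921 genes in each of 9 comparisons. The limma fit was also run on simulated arrays, with genes drawn independently around 1 mean each and known changes put into some. These held no split into Ckm-high and Ckm-low arrays within groups. The run therefore does not check the labelled comparisons for that split.

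Members, lists and settings were chosen with earlier results of these data known. Named were, by rule, the member of each role with the lowest difference, the 5 with the highest, the 2 with the lowest p in each comparison, and, of related genes, the 5 lowest and all at 0 or above; the others are named by role. Deviations of same-numbered arrays from their group means correlated between -0.73 and 0.69. They were all above 0.1 in 1 comparison, KO against Wt at day 0 (0.37 to 0.61), where the numbers were taken to pair the arrays. Replicate 1 was the Ckm-high array of both groups there. The number of arrays limits the precision. Alternatives were other background corrections and scalings, the authors' processed values, other detection filters, the mean of all probes, array weights, the compared groups alone, the replicate block and each array left out.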

Additional observations from a re-analysis of the deposited data

How the results depend on the processing

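The count of members lower without overlap on Ckm-high arrays (34 of 37, against 9.95% of all genes) was 29 to 36 under all alternatives. It was 29 under median scaling (9.05% of all genes), and 34 to 36 on leaving out each array. The share of all genes was 6.23% with no detection filter (39 members) and 11.8% with detection on 9 or more arrays (36 members). Over day 0 or day 3 arrays alone it was 15.4% and 16.6%, and without the Usp18-high arrays 16.2%. Settings with fewer arrays thus had higher shares of all genes too, and the counts are not alike. The count of members not lower was 0 in every setting run, and all 443 single differences under other settings, 666 with 1 array left out and 31 from other probes were below 0. Dim probes among the 31 may have passed the filter through Ckm-low arrays alone, which limits what their direction can show. The median difference (-1.64) was -1.23 with normexp by signal, -1.1 without background correction, -1.79 with median scaling, -1.06 with the authors' processed values, -1.33 with the mean of all probes, -1.75 over day 0 arrays alone (chosen after the data were seen) and -1.73 to -1.6 on leaving out each array; the cause was not tested. Over all genes this median lay between -0.04 and 0 in these settings.

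Members past the threshold were 0 in all 9 comparisons in every alternative but array weights, including leaving out each array and the replicate block, which gave 0 members past the threshold in KO against Wt at day 0 and elsewhere, also over those 6 arrays alone, and changed no call. Array weights gave 1 in KO against Wt at day 0 (Mcm3), 4 in day 3 against day 0 in Wt and 36 in day 3 against day 0 in KO. The shares of all genes past the threshold in that setting are not given here. These counts therefore do not set the members apart, and the cause was not tested. With array weights the medians over members were 0.11 and -0.14 for KO and -0.02 and 0.97 for OE against Wt at days 0 and 3. They were -0.15 for OE over days, and -0.34 and 1.14 for the differences of KO and OE from the Wt change. Leaving out 1 array, the medians over members ranged from -0.63 to 0.62 for KO and from -0.62 to 0.44 for OE against Wt at day 0, from -0.84 to 0.02 and from 0.15 to 0.96 at day 3, from -1.1 to -0.17 in Wt, -1.72 to -0.73 in KO and -0.53 to 0.62 in OE over days, and from -1.2 to 0.01 and 0.03 to 1.14 for the differences of KO and OE from the Wt change. The Rrm1 difference between days in OE, 0.47, rounded to 0 with the mean of its probes. Dim probes of Prim1 and Orc1 limit what their levels can show.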
